A study of Mus musculus with 20 samples.

Results

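Ischemia-reperfusion injury (IRI) and rhabdomyolysis were compared in mouse kidney cortex at 24 h, gene by gene, to see where the 2 injuries moved expression by different amounts. The quantity compared was a difference between effects on the log2 scale, the change in IRI against its controls minus the change in rhabdomyolysis against its controls. A negative value means that the IRI effect lay below the rhabdomyolysis effect, through a smaller rise or a deeper fall, and a positive value means the opposite. The comparison used 16 of the 20 libraries of the series (IRI 1 to 4, Rhabdomyolysis 1 to 4 and 8 controls) and 5672 of the 6025 genes in the deposited table, those with a mean of at least 1 CPM, the reads of a gene scaled to the size of its library, over all libraries. Effects were taken on log2(CPM + 1), which understates the change of genes with low levels. All groups were wild-type (WT) C57BL/6 mice, given as C57BL/6J in the protocol and aged 8 weeks, and each library was 1 kidney cortex RNA sample. The labels call every control mock, while the series text speaks of mock and vehicle controls, so the 2 kinds could not be separated. How the injuries were induced is not given in the sources used here.

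The library identifiers fall into 2 ranges. Controls 1 to 4 share a range with the IRI libraries, and Controls 5 to 8 share the other with the rhabdomyolysis libraries, so each injury was set against the controls of its own range and the 2 effects share no library. Between the 2 sets of controls, limma called 0 of 5672 genes at an adjusted p below 0.05, with 454 genes below an unadjusted p of 0.05. The series text calls the samples biological replicates, without saying more of how mice were assigned. Reads in the table ranged from 3476635 to 5396140 per library. The genes of the table took 55.3 to 70.6% of the total behind the CPM values in controls, 46.3 to 48.3% in IRI and 42.1 to 45.3% in rhabdomyolysis. All 6025 genes of the table lay 1.5-fold or more away from the controls in some injury of the series, so the shares of genes called below describe a set selected for change. As a check of the labelled tissue, 18 genes of the first 2 proximal tubule segments summed to between 17203 and 23293 CPM in the 8 controls. In bulk tissue, fewer cells of a type and less RNA per cell cannot be told apart.

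Interrupted and restored blood flow starves the renal tubule of oxygen and nutrients and then floods it with oxidants. In rhabdomyolysis, damaged skeletal muscle releases myoglobin and other contents that the kidney filters, and the heme of myoglobin is taken up by and toxic to the proximal tubule. Injured cells answer through separate programs. The heat shock response, driven by HSF1, makes chaperones for misfolded proteins in the cytosol. The unfolded protein response makes chaperones for the endoplasmic reticulum (ER), and the integrated stress response slows translation while the factor ATF4 induces amino acid transport and synthesis genes. NRF2 induces antioxidant enzymes, and heme oxygenase, encoded by Hmox1, breaks down heme. The proximal tubule, which reabsorbs most of the filtrate through transporters and burns fatty acids, is injured in both.

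The promoters of genes of the unfolded protein response and of ATF4 targets are shown first, because these 2 groups carried many of the differences described later. The sequences come from RefSeq promoters (build GRCm38.p6, 250 bases before to 50 after each gene start), read 5′ to 3′ on the strand of the gene. The ER stress element was searched on both strands as CCAAT and CCACG with any 9 bases between them, a search added after the expression values had been seen. It was found in 5 of the 9 genes of the ER list with a promoter in the table. The shares were 37 of 27025 genes (0.137%) with a promoter there and 9 of the 4457 genes tested among them (0.202%). Matches on either strand are in capitals. Each match is a description of letters and not of factor binding. Hspa5 lies at chr2:34771995-34772073, plus strand, Pdia6 at chr12:17266461-17266539, plus strand, Creld2 at chr15:88819490-88819568, plus strand, Syvn1 at chr19:6046502-6046580, plus strand and Hsp90b1, with 2 matches, at chr10:86705503-86705686, minus strand.
Hspa5: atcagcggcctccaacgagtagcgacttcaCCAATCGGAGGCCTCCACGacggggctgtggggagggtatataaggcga
Pdia6: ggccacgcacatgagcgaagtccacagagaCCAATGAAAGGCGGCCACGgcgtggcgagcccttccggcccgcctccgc
Creld2: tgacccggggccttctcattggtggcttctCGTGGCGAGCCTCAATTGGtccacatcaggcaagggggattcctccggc
Syvn1: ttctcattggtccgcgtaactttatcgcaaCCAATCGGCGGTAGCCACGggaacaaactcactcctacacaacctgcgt
Hsp90b1: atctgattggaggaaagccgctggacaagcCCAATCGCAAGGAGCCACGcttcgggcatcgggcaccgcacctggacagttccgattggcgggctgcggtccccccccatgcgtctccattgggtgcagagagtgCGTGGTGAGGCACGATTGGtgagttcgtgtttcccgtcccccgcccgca

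The composite element that C/EBP and ATF factors bind was searched as TGATGNAA on both strands. It was found in 5 of the 20 ATF4 target genes with a promoter in the table, against 4.51% of all 27025 genes and 2.85% of the genes tested. The genes were Atf3, Trib3, Chac1, Nupr1 and Asns. The match in Atf3 lies in chr1:191183406-191183473, minus strand; that in Chac1 in chr2:119351019-119351086, plus strand and that in Nupr1 in chr7:126625543-126625610, minus strand, with the matches in capitals. The heat shock element was searched on both strands as GAA, TTC and GAA with any 2 bases between neighbours. It was found in 1 of 11 heat shock genes, Hsph1, against 0.662% of all 27025 genes and 0.606% of the genes tested. The antioxidant response element was searched on both strands as TGAC and GC with any 3 bases between them. It was found in 5 of 15 NRF2 list genes and 2 of 8 heme and iron genes. The shares were 13.99% of all 27025 genes and 16.78% of the genes tested.
Atf3: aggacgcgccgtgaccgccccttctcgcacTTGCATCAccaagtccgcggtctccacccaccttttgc
Chac1: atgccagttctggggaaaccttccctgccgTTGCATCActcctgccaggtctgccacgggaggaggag
Nupr1: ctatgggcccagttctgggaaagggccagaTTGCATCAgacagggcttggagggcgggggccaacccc

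The 2 injuries changed largely the same genes in the same direction, and where their sizes differed the rhabdomyolysis effect was usually the larger. The difference between effects passed an adjusted p of 0.05 in limma for 2949 of 5672 genes (52.0%), with the IRI effect higher for 1620 (28.6%) and lower for 1329 (23.4%). Of these 2949 genes, the absolute effect was larger in rhabdomyolysis for 2711 (91.9%) and larger in IRI for 238. The median absolute effect over all genes tested was 0.71 in IRI and 1.22 in rhabdomyolysis, and the median difference was 0.02. The IRI effect alone passed for 4578 genes (80.7%; 40.6% higher and 40.1% lower than controls) and the rhabdomyolysis effect for 5404 (95.3%; 48.8% higher and 46.5% lower). A difference of at least 2-fold was reached by 1283 of the genes called and one of at least 4-fold by 219. As alternatives, a direct contrast of the IRI with the rhabdomyolysis mice in limma, without controls, called 35.6% of genes higher in IRI and 32.6% lower, and DESeq2 on the reads recovered from the CPM called 22.3% higher and 23.5% lower of the 6021 genes for which it gave an adjusted p. Where a list's count moved by over 1.5 times under these alternatives, the other count is given beside it.

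**Figure D1:**
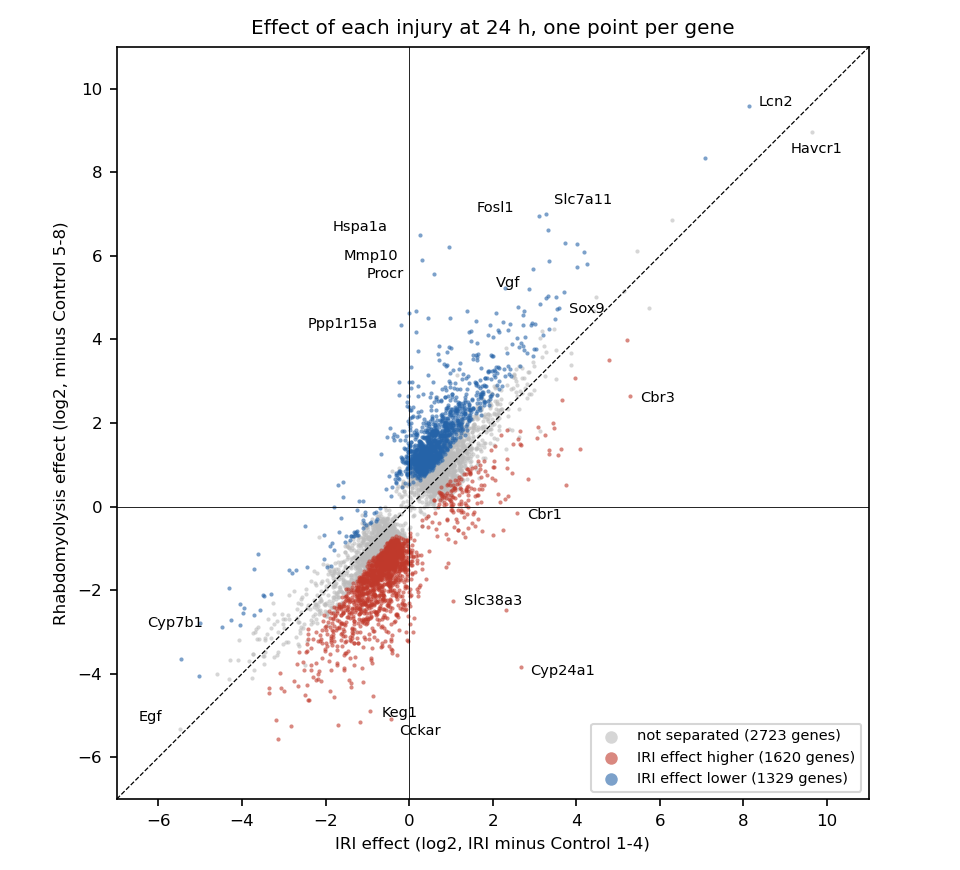
Effect of rhabdomyolysis (vertical axis, log2, against Controls 5 to 8) against the effect of IRI (horizontal axis, log2, against Controls 1 to 4), with 1 point for each of 5672 genes. Red marks genes with a higher IRI effect (1620), blue a lower IRI effect (1329) and grey the 2723 genes not called; the dashed line marks equal effects, and most coloured points lie on the side of it farther from 0 on the rhabdomyolysis axis.

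Genes that rose in both injuries numbered 2155, of which 881 rose further in rhabdomyolysis and 89 further in IRI. Genes that fell in both numbered 2224, of which 1151 fell further in rhabdomyolysis and 50 further in IRI. The differences also held 377 genes that rose in rhabdomyolysis with an IRI effect that was not called, and 289 that fell in rhabdomyolysis with an IRI effect that was not called. Only 28 genes were called in opposite directions in the 2 injuries and also in the difference, 24 of them higher in IRI and 4 lower.

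The differences in which rhabdomyolysis lay furthest above IRI included an inducible heat shock protein, a matrix protease and a translation regulator. Hspa1a, which encodes the stress-inducible cytosolic chaperone HSP70, stood at 14.3, 15.98, 13.2 and 18.8 CPM in the IRI mice and at 11.3, 16.2, 12.9 and 11.1 CPM in Controls 1 to 4. In rhabdomyolysis it stood at 2128, 801, 937 and 857 CPM, against 12.5, 10.7, 12.8 and 8.56 CPM in Controls 5 to 8. The IRI and control values overlapped, every rhabdomyolysis mouse lay far above them, and mouse 1 was the highest. The effects were 0.26 in IRI (not called) and 6.49 in rhabdomyolysis, a difference of -6.23 ± 0.31 (SE; limma adjusted p = 2.34e-12). Hspa1b, a near-identical neighbour gene whose reads may be shared with Hspa1a, held 31.7 to 45.5 CPM in IRI and 649 to 1724 CPM in rhabdomyolysis. Ppp1r15a encodes GADD34, the phosphatase subunit that restarts translation after stress. Its values were 22.8, 19.7, 16.6 and 23.1 CPM in IRI and 291, 305, 314 and 463 CPM in rhabdomyolysis. All control values (15.1 to 19.5 and 14.9 to 19.1 CPM) lay in or near the IRI range, and the difference was -4.01 ± 0.20 (limma adjusted p = 2.38e-12).

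Several of these genes were at or near 0 reads in the controls and in IRI. Mmp10, which encodes the matrix protease stromelysin-2, had no read in any of the 8 controls, stood at 0.524, 0.266, 0.115 and 0.114 CPM in IRI and reached 44.2, 68.4, 65.6 and 60.9 CPM in rhabdomyolysis. Against a floor of 3 reads per control library, the rhabdomyolysis mean was at least 134-fold higher. Sstr5, a somatostatin receptor gene, had 0 reads in all controls and all IRI mice and 19.3, 24.9, 23.8 and 27.6 CPM in rhabdomyolysis, at least 53.4-fold above the same floor. No IRI value of either gene reached a rhabdomyolysis value. Sstr5 passed the minimum of 1 CPM only through its rhabdomyolysis values, so these are a description and no test of it is given. The limma difference of Mmp10 was -5.59 ± 0.23 in log2(CPM + 1), a size that depends on the added 1. A fold of folds has no defined value with both control groups at 0, and edgeR's quasi-likelihood test on recovered reads, which tests that ratio, did not call Mmp10 (adjusted p = 1.00), while DESeq2 did (adjusted p = 3.34e-06). Nptx2, which encodes a secreted pentraxin, was at 0 in the controls, at 0.114 to 0.666 CPM in IRI and at 17.0 to 29.3 CPM in rhabdomyolysis, and like Sstr5 it passed the minimum only through rhabdomyolysis and is described without a test.

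Procr encodes the endothelial protein C receptor, an anticoagulant cofactor. It held 2.23, 3.20, 2.41 and 3.32 CPM in IRI and 74.7, 117, 119.6 and 115 CPM in rhabdomyolysis, with 1.35 to 1.69 and 0.691 to 1.81 CPM in the 2 control sets. IRI values lay just above all controls, and rhabdomyolysis values formed a separate, much higher group, with mouse 1 the lowest (difference -4.99 ± 0.26, limma adjusted p = 5.07e-12). Efr3b, which encodes a protein that anchors a lipid kinase at the plasma membrane, was at 1.84 to 2.36 CPM in IRI and 76.0 to 93.4 CPM in rhabdomyolysis, with an IRI effect that was not called. Myo18b, an unconventional myosin gene best known from striated muscle, was at 0 to 0.133 CPM in IRI, 0 to 0.575 and 0 to 0.329 CPM in the controls and 14.5 to 47.6 CPM in rhabdomyolysis, which alone brought it past the minimum. Of 17 marker genes of skeletal muscle, fat and adrenal looked for, only Fabp4, a fatty acid binding protein gene of fat cells and capillary endothelium, was in the table, and the others were not analysed here. Fabp4 held 58.7, 69.0, 48.7 and 59.0 CPM in IRI and 97.2, 60.7, 205 and 87.2 CPM in rhabdomyolysis, from 40.3 to 47.1 and 31.9 to 48.1 CPM in the 2 control sets. Rhabdomyolysis 2 lay within the IRI range, and every mouse of both injuries lay above the controls. It rose by 1.38 in rhabdomyolysis and had an IRI effect of 0.40 that was not called, and the difference was -0.98 ± 0.34 (limma adjusted p = 0.0191). The part of fat tissue or endothelium in the differences of the genes above was not tested.

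**Figure D2:**
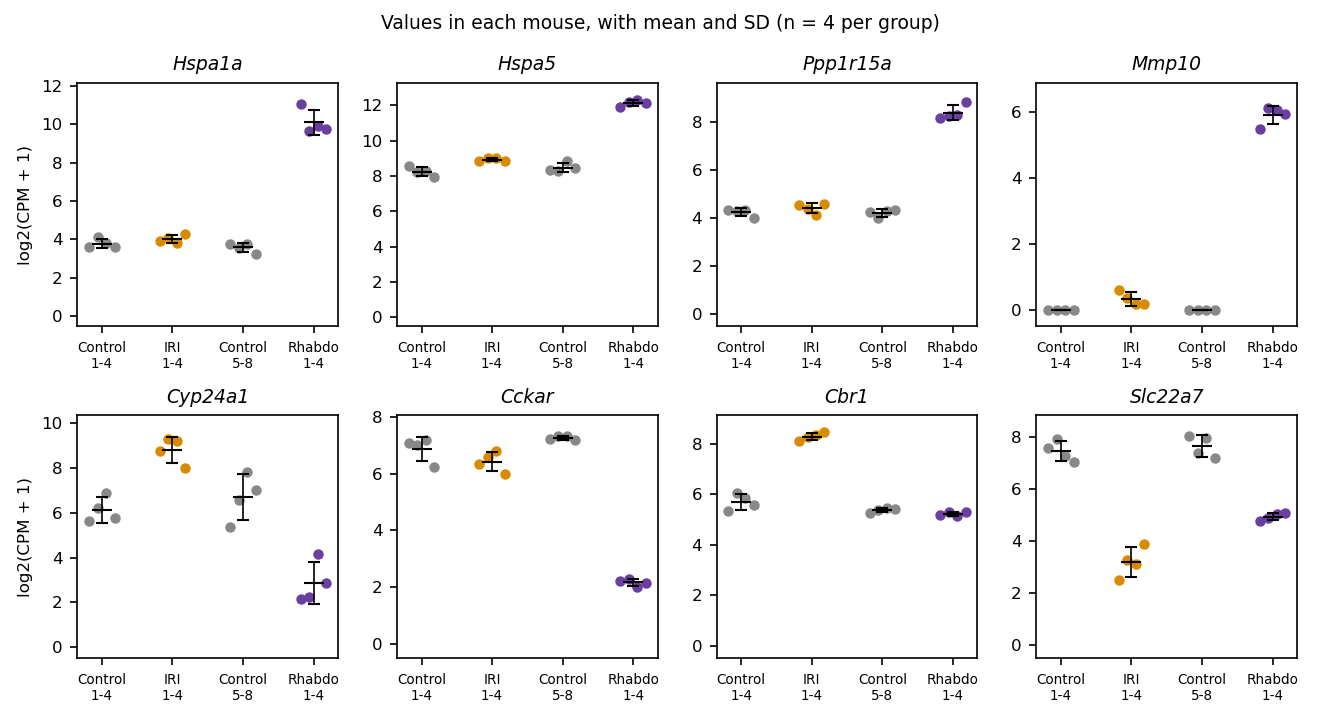
Expression of 8 genes in each mouse, as log2(CPM + 1), with points for mice, bars for the mean and SD of 4 mice, grey for controls, orange for IRI and purple for rhabdomyolysis. In the upper panels the rhabdomyolysis mice stand apart above IRI and both control sets, and in the lower panels Cyp24a1 moves in opposite directions, Cckar falls and Cbr1 rises in 1 injury, and Slc22a7 falls deeper in IRI.

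At the other end stood genes that fell in rhabdomyolysis and rose, fell less or were not called in IRI. Cyp24a1 encodes the enzyme that inactivates active vitamin D. It stood at 438, 624, 585 and 257 CPM in IRI, above all of Controls 1 to 4 (48.8, 74.5, 119 and 52.9 CPM). In rhabdomyolysis it stood at 3.40, 3.74, 17.1 and 6.36 CPM, below all of Controls 5 to 8 (40.8, 94.5, 225 and 128 CPM). It rose by 2.69 in IRI and fell by 3.84 in rhabdomyolysis, and the difference of 6.52 ± 0.61 had a 95% interval of 5.27 to 7.78 (limma adjusted p = 3.24e-08). The controls of this gene spread widely, from 48.8 to 119 and from 40.8 to 225 CPM.

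Cckar, the gene of a cholecystokinin receptor, held 79.5, 93.8, 109 and 62.7 CPM in IRI, a range that overlapped Controls 1 to 4 (133, 127, 142 and 73.2 CPM). In rhabdomyolysis it dropped to 3.69, 3.94, 3.04 and 3.41 CPM from 146, 158, 159 and 142 CPM in Controls 5 to 8, and no value of the 2 groups overlapped. The IRI effect of -0.44 was not called, and the difference was 4.63 ± 0.35 (limma adjusted p = 1.76e-09). Keg1, an acyltransferase-like gene of the kidney, held 44.4 to 129 CPM in rhabdomyolysis against 1825 to 3360.0 CPM in its controls, and 897 to 1928 CPM in IRI against 1969 to 3258 CPM. Tmem174, which encodes a membrane protein of the proximal tubule, fell by 4.53 in rhabdomyolysis and by 0.86 in IRI. Hykk, a hydroxylysine kinase gene, fell by 5.23 and 1.71 in the same order. Each of these 3 genes fell in both injuries. They were named for large differences without overlap between the injuries, so the size and the lack of overlap follow from the choice. Susd3 held 33.3 to 52.6 CPM in IRI, which overlapped its controls (35.8 to 65.7 CPM), and 2.16 to 3.99 CPM in rhabdomyolysis against 37.9 to 64.4 CPM.

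Most heat shock chaperones had a larger rise in rhabdomyolysis. Of 15 genes of this list in the table, 12 rose in rhabdomyolysis and 8 in IRI, against 48.8% and 40.6% of all genes. A lower IRI effect was called for 12 and a higher one for 1, against 23.4% and 28.6% of all genes. The median effect was 0.49 in IRI and 2.05 in rhabdomyolysis, with a median difference of -1.66 against 0.02 over all genes. After the HSP70 genes, the small heat shock protein gene Hspb1 showed the next largest difference. It held 55.1, 69.4, 69.5 and 63.6 CPM in IRI and 439, 229.7, 316 and 231 CPM in rhabdomyolysis, both above all controls (5.90 to 10.7 and 6.35 to 8.68 CPM), and the difference was -2.34 ± 0.25 (limma adjusted p = 2.80e-07). Hsph1, which encodes a nucleotide exchange factor for HSP70 and carries the heat shock element counted above, held 114, 125, 109 and 119 CPM in IRI and 625, 376, 419 and 414 CPM in rhabdomyolysis. Its IRI values lay within the range of Controls 1 to 4 (106 to 144 CPM), and all rhabdomyolysis values lay above Controls 5 to 8 (80.4 to 175 CPM). Dnajb1, the main HSP40 partner, had effects of 0.01 in IRI (not called) and 1.84 in rhabdomyolysis. Bag3, a co-chaperone of selective autophagy, rose by 0.53 and 2.41, and the HSP90 gene Hsp90aa1 rose by 0.65 and 2.31.

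Some constitutive chaperones fell in IRI. Hspa8, the constitutive HSP70 gene, fell by 1.10 in IRI and had an effect of 0.13 in rhabdomyolysis that was not called. Its IRI values were 1645, 1292, 1634 and 1649.7 CPM against 2938, 4277, 3843 and 2499 CPM in Controls 1 to 4, without overlap. Dnaja1, another HSP40 gene, followed the same pattern, at -1.195 in IRI and 0.12 (not called) in rhabdomyolysis. The 1 member with a higher IRI effect was Fkbp4, a co-chaperone of steroid receptors, which fell by 0.99 in rhabdomyolysis and had an IRI effect of -0.18 that was not called.

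The chaperones of the ER differed in the same direction without exception among the genes tested. All 11 ER list genes tested, of 20 looked for, had a lower IRI effect, against 23.4% of all genes called lower. None of the 11 overlapped between the mice of the 2 injuries, against 59.9% of all genes without overlap. The median effect was 0.54 in IRI and 2.11 in rhabdomyolysis. Hspa5 encodes BiP, the master chaperone of the ER, and the first promoter shown is its own. It held 464, 514, 514 and 451 CPM in IRI against 373, 293, 309 and 246 CPM in Controls 1 to 4. In rhabdomyolysis it held 3829, 4666, 4976 and 4498 CPM against 319.5, 310.2, 451 and 350.4 CPM in Controls 5 to 8. It rose in both injuries, to 1.59 times the control mean in IRI and 12.6 times in rhabdomyolysis, and the difference was -2.98 ± 0.19 (95% interval -3.36 to -2.59; limma adjusted p = 9.00e-11).

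Dnajb9, a co-chaperone of BiP, held 99.3, 91.1, 94.5 and 117 CPM in IRI and 312, 415, 401 and 416 CPM in rhabdomyolysis, and its IRI effect of 0.10 was not called. The other genes whose promoters are printed showed smaller differences. Creld2, which encodes an ER disulfide isomerase-like protein, had a difference of -1.99 ± 0.26, the ER HSP90 gene Hsp90b1 -1.54 ± 0.24, the ER ubiquitin ligase gene Syvn1 -1.34 ± 0.19 and the disulfide isomerase gene Pdia6 -0.67 ± 0.20, with limma adjusted p between 2.87e-06 and 0.00922. Herpud1, which acts in ER-associated degradation, fell in IRI. Its IRI values were 117, 131, 136 and 174 CPM against 311 to 504 CPM in controls, a fall of 1.62, while the rhabdomyolysis effect of -0.28 was not called.

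**Figure D3:**
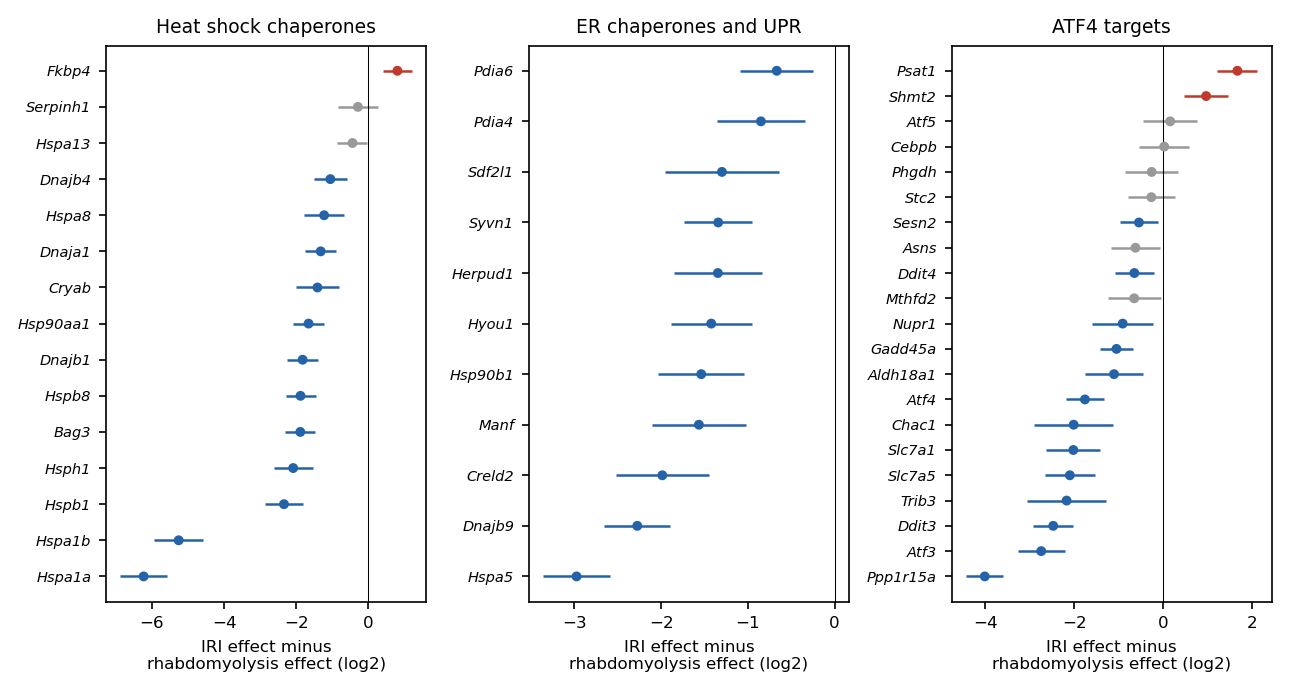
Difference between the IRI and the rhabdomyolysis effect (log2, horizontal axis) for each tested gene of 3 stress lists, with points for estimates, lines for 95% intervals, blue for a lower IRI effect called by limma, red for a higher one and grey for genes not called. Nearly all chaperone genes lie left of 0, while the ATF4 targets run from Ppp1r15a at -4.01 to Psat1 at 1.67.

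Most ATF4 targets rose in both injuries. Of 21 genes tested, 18 rose in IRI and 20 in rhabdomyolysis, against 40.6% and 48.8% of all genes. A lower IRI effect was called for 13 and a higher one for 2, against 23.4% and 28.6% of all genes, and the median difference was -0.91. Among those with a lower IRI effect were the factors Atf3, Ddit3 and Atf4. Atf3, an early stress repressor with the composite element in its promoter, stood at 12.3, 12.1, 9.53 and 17.4 CPM in IRI and 101, 85.5, 97.7 and 86.2 CPM in rhabdomyolysis, from 0.282 to 1.16 and 0.552 to 1.07 CPM in controls (difference -2.74 ± 0.25, limma adjusted p = 3.19e-08). Ddit3, which encodes CHOP, stood at 19.5, 14.9, 10.2 and 12.4 and 57.3, 72.2, 85.5 and 67.8 CPM in the same order (difference -2.47 ± 0.22). Atf4 itself rose by 0.77 and 2.53. In all 3 genes every rhabdomyolysis mouse exceeded every IRI mouse.

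IRI mouse 1 stood above the other IRI mice for part of this group. Trib3, an ATF4-induced pseudokinase gene, held 28.7, 6.79, 7.46 and 5.49 CPM in IRI and 31.0, 33.6, 39.6 and 45.8 CPM in rhabdomyolysis. Chac1, which degrades glutathione, held 10.8, 2.40, 1.49 and 3.32 and 12.5, 16.2, 21.3 and 20.2 CPM. In both genes the highest IRI value came close to the lowest rhabdomyolysis value without reaching it. The differences were -2.17 ± 0.43 and -2.01 ± 0.42, and edgeR did not call that of Chac1 (adjusted p = 0.0813). Nupr1, a chromatin-associated stress factor, overlapped between the injuries (16.4 to 28.9 and 21.0 to 47.0 CPM), and its difference of -0.91 ± 0.33 (limma adjusted p = 0.0253) was no longer called when any of 5 single libraries (Control 8, Rhabdomyolysis 1 or 3, IRI 1 or 3) was left out, with limma adjusted p between 0.0511 and 0.0644.

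Among the amino acid genes, the transporter gene Slc7a5 rose further in rhabdomyolysis (1.53 and 3.63). Psat1, an enzyme of serine synthesis, rose further in IRI, with 293, 289, 298 and 365 CPM in IRI and 84.7, 88.3, 88.2 and 129.9 CPM in rhabdomyolysis against 42.0 to 65.9 and 46.8 to 69.6 CPM in controls (difference 1.67 ± 0.22, limma adjusted p = 2.71e-06). Asns, the asparagine synthetase gene, rose by 3.22 and 3.85, and its difference of -0.62 ± 0.26 was not called (95% interval -1.17 to -0.08). Limma did call it without IRI 1 (adjusted p = 0.00475), Rhabdomyolysis 1 (0.0235), Control 4 (0.0369) or Control 7 (0.0363). It was also called under 75th percentile scaling (0.0295) or quantile normalization (0.0251), and in the direct contrast (0.00376). A minimum mean of 5 CPM gave a call as well. Atf5 and Cebpb, 2 further factors of the response, rose in both injuries with differences of 0.16 (95% interval -0.45 to 0.76) and 0.02 (-0.54 to 0.59) that were not called. The direct contrast called Cebpb lower in IRI, by -0.61 (limma adjusted p = 0.00849).

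Immediate early genes, which encode factors induced within minutes of a stimulus, were raised at 24 h, and more so in rhabdomyolysis. Of 23 tested, 21 rose in IRI and all 23 in rhabdomyolysis, against 40.6% and 48.8% of all genes. In 20 the IRI effect was lower and in none higher, against 23.4% and 28.6% of all genes, with a median difference of -1.45. Fosl1, which encodes the AP-1 subunit FRA1, held 11.9, 5.06, 8.04 and 7.66 CPM in IRI and 95.01, 113, 130.2 and 161 CPM in rhabdomyolysis, with reads in only 1 of the 8 controls (0.129 CPM). No IRI value came near a rhabdomyolysis value. The difference was -3.85 ± 0.26 (limma adjusted p = 4.71e-10), and edgeR did not call it (adjusted p = 0.114). Fosb held 0.343 to 0.799 CPM in IRI and 3.99 to 6.02 CPM in rhabdomyolysis, with an IRI effect that was not called. Fos rose by 1.19 and 3.30, Jun by 1.73 and 2.87 and Myc by 2.57 and 4.03, each with a difference that passed. Jund, another AP-1 member, had a difference of -0.37 ± 0.19 that was not called. Limma did call it without Control 4 (adjusted p = 0.0371) or Control 7 (0.0342), under 75th percentile scaling (0.0381) or quantile normalization (0.0103), and in the direct contrast (0.00276).

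Genes of ribosome assembly differed in the same direction. Of 17 tested, 13 rose in IRI and 17 in rhabdomyolysis, against 40.6% and 48.8% of all genes. In 16 the IRI effect was lower and in none higher, against 23.4% and 28.6% of all genes, and the median effect was 0.49 in IRI and 1.25 in rhabdomyolysis. Nop58, a core protein of the box C/D particles that modify ribosomal RNA, held 67.4, 50.1, 48.9 and 53.3 CPM in IRI and 139, 151, 178 and 123 CPM in rhabdomyolysis (difference -1.75 ± 0.21, limma adjusted p = 7.82e-07). Ncl, which encodes nucleolin, held 464, 344, 353 and 374 and 771, 1012, 936 and 962 CPM. Its IRI values overlapped Controls 1 to 4 (370.3 to 430.0 CPM), and all its rhabdomyolysis values lay above Controls 5 to 8 (340.2 to 361 CPM).

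Of 17 NRF2 targets tested, 5 had a higher and 6 a lower IRI effect, against 28.6% and 23.4% of all genes, and the median difference was -0.16 against 0.02 over all genes. Slc7a11, the cystine importer gene that supplies glutathione synthesis, stood at 0.144 to 0.404 and 0 to 0.401 CPM in the 2 control sets, at 24.0, 8.12, 11.02 and 8.12 CPM in IRI and at 83.2, 153, 123 and 228 CPM in rhabdomyolysis. IRI mouse 1 was the highest of its group and still below every rhabdomyolysis mouse (difference -3.72 ± 0.41, limma adjusted p = 3.54e-07). Sqstm1, the autophagy receptor p62, held 1061, 556, 629.9 and 651 CPM in IRI, which overlapped Controls 1 to 4 (559 to 844 CPM), and 2288, 2527, 2742 and 3098 CPM in rhabdomyolysis. Srxn1, which repairs peroxiredoxins, and Txnrd1, thioredoxin reductase, rose in both injuries and further in rhabdomyolysis (differences -1.45 ± 0.24 and -0.69 ± 0.17).

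The carbonyl reductases had higher IRI effects. Cbr1 held 274, 311, 322 and 350.0 CPM in IRI against 39.3, 66.0, 56.9 and 47.2 CPM in Controls 1 to 4. In rhabdomyolysis it held 35.3, 38.3, 34.6 and 38.8 CPM against 37.4, 40.4, 43.4 and 41.4 CPM in Controls 5 to 8, an effect of -0.14 that was not called. Every IRI mouse thus stood above every other mouse of the comparison, and the difference was 2.73 ± 0.19 (limma adjusted p = 6.20e-10). Cbr3 rose in both injuries, to 79.9 to 105 CPM in IRI and 9.16 to 14.6 CPM in rhabdomyolysis (difference 2.63 ± 0.31). Nqo1, a quinone reductase and a standard NRF2 readout, also rose further in IRI (2.04 against 1.10). Akr1b8, an aldo-keto reductase gene, rose by 5.15 and 5.17, and the 95% interval of its difference ran from -0.49 to 0.44. None of the NRF2 genes called here changed direction under 75th percentile scaling, quantile normalization or DESeq2, and each of these gave 5 higher and 6 lower calls in the list.

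Of 13 heme and iron genes, 4 had a higher and 5 a lower IRI effect, against 28.6% and 23.4% of all genes. Hmox1 held 783, 464, 489 and 528 CPM in IRI and 1288, 986, 1016 and 1603 CPM in rhabdomyolysis, from 30.7 to 54.9 and 27.6 to 44.9 CPM in controls. It rose in both injuries, to 13.3 times the control mean in IRI and 36.4 times in rhabdomyolysis. The difference was -1.44 ± 0.27 (limma adjusted p = 1.82e-04), with no overlap between the groups. The metal-binding metallothionein genes Mt1 and Mt2 also rose further in rhabdomyolysis (differences -1.33 ± 0.29 and -1.85 ± 0.36). In contrast, the transferrin receptor gene Tfrc held 184, 212, 214 and 229 CPM in IRI and 78.6, 109.6, 91.0 and 69.1 CPM in rhabdomyolysis, where 2 mice lay within the range of Controls 1 to 4 (39.4 to 81.9 CPM) but all lay above Controls 5 to 8 (46.5 to 61.9 CPM). Fth1, the iron-storage ferritin heavy chain gene, stood at 12788 to 16960.4 CPM in IRI and 6857 to 10051 CPM in rhabdomyolysis (difference 1.02 ± 0.25), a call that quantile normalization did not keep (limma adjusted p = 0.0943).

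Proximal tubule transporters fell in both injuries with few exceptions. Among 18 markers of the first 2 segments (S1 and S2), all fell in rhabdomyolysis and 15 in IRI, against 46.5% and 40.1% of all genes. In 13 the IRI effect was higher and in none lower, against 28.6% and 23.4% of all genes. Their median effect was -0.93 in IRI and -2.80 in rhabdomyolysis. Slc13a3, a dicarboxylate transporter gene, held 525, 455, 634 and 438 CPM in IRI, which overlapped Controls 1 to 4 (722, 668, 917 and 481 CPM), and the IRI effect was not called. In rhabdomyolysis it held 66.1, 73.9, 80.1 and 61.2 CPM against 750.5, 722, 846 and 747 CPM. The difference was 3.01 ± 0.28 (limma adjusted p = 3.57e-08). Slc22a6, the organic anion transporter OAT1, behaved alike, at 609.8 to 853 CPM in IRI and 101 to 135 CPM in rhabdomyolysis. The receptors Lrp2 (megalin) and Cubn (cubilin), which take up filtered proteins, myoglobin among them, fell in both injuries. Cubn fell by 0.61 in IRI and 2.91 in rhabdomyolysis, and Lrp2 by 0.60 and 2.46. Pdzk1, a scaffold of apical transporters, fell by 1.32 and 3.79.

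Differences were not called for 5 of the 18 S1 and S2 markers. Slc34a1, the main phosphate transporter, held 1132, 742, 999.4 and 1017 CPM in IRI and 1301, 1089, 1048 and 1363 CPM in rhabdomyolysis, from 4727 to 6986 and 6059 to 7513 CPM in controls. The glucose transporter gene Slc5a2 (SGLT2) fell by 1.57 and 1.33. Neither difference was called, with 95% intervals of -0.92 to 0.46 and -0.82 to 0.34, which do not show equal effects.

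Of 16 markers of the third segment (S3) tested, the IRI effect was higher for 8 and lower for 4, against 28.6% and 23.4% of all genes. The median effect was -2.39 in IRI and -2.69 in rhabdomyolysis. Those that fell further in IRI were the steroid hydroxylase gene Cyp7b1 and the organic anion transporter genes Slc22a7, Slc22a19 and Slc22a13. Slc22a7 held 4.72, 8.66, 7.81 and 13.8 CPM in IRI and 26.0, 28.8, 31.8 and 32.7 CPM in rhabdomyolysis, from 192, 244, 153 and 130.3 and 263, 167, 245 and 146 CPM in the 2 control sets. Every IRI mouse lay below every rhabdomyolysis mouse, and the difference was -1.55 ± 0.39 (limma adjusted p = 0.00221). Cyp7b1 held 4.59, 4.93, 7.23 and 6.18 and 14.7, 19.2, 24.5 and 25.7 CPM, with a difference of -1.60 ± 0.36. The differences were -1.34 ± 0.36 for Slc22a19 and -1.11 ± 0.39 for Slc22a13.

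The S3 genes on the other side included Acy3, an aminoacylase gene, which fell by 1.90 in IRI and 4.41 in rhabdomyolysis. Slc27a2, a fatty acid transporter gene, fell by 1.23 and 3.26. Slc38a3, the glutamine transporter SNAT3 that is induced in acidosis, rose in IRI and fell in rhabdomyolysis. Its values were 39.5, 81.1, 70.2 and 125 CPM in IRI against 32.8, 44.5, 46.5 and 20.7 in Controls 1 to 4, and 5.67, 5.02, 5.61 and 7.95 CPM in rhabdomyolysis against 41.0, 19.4, 41.4 and 32.6 in Controls 5 to 8. The IRI values overlapped their controls, the rhabdomyolysis values did not, and the difference was 3.31 ± 0.40 (limma adjusted p = 1.15e-06). Slc7a13, an S3 amino acid transporter gene, fell by 4.10 and 3.66 with a difference that was not called (95% interval -1.21 to 0.33), although the direct contrast called it lower in IRI, by -0.60 (limma adjusted p = 0.0468).

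**Figure D4:**
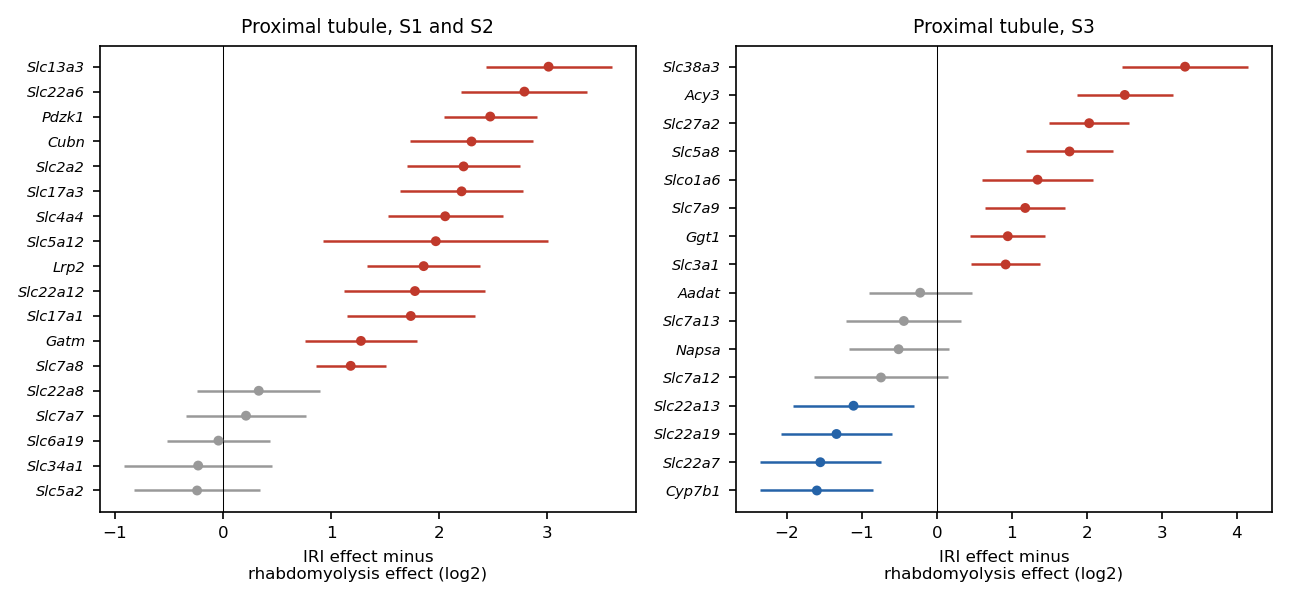
Difference between the IRI and the rhabdomyolysis effect (log2, horizontal axis) for each tested marker of the S1 and S2 segments (left) and the S3 segment (right) of the proximal tubule, with points for estimates, lines for 95% intervals and colours for calls by limma (red higher, blue lower, grey not called). No S1 or S2 marker was called left of 0, while 4 S3 markers were.

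Genes of energy metabolism mostly fell in both injuries. Of 16 genes of gluconeogenesis and fatty acid oxidation, 11 fell in IRI and 14 in rhabdomyolysis, against 40.1% and 46.5% of all genes. The IRI effect was higher for 12 and lower for none, against 28.6% and 23.4% of all genes, with median effects of -0.80 in IRI and -2.14 in rhabdomyolysis. Ehhadh, a peroxisomal fatty acid enzyme gene, held 382, 450.5, 448 and 906 CPM in IRI, overlapping Controls 1 to 4 (565 to 861 CPM), and 60.5, 77.1, 56.0 and 117 CPM in rhabdomyolysis against 520.3 to 1036 CPM. Acot12, an acetyl-CoA hydrolase gene, had an IRI effect of 0.01 (not called) and fell by 2.14 in rhabdomyolysis. Cyp4a14, a fatty acid hydroxylase gene controlled by PPAR alpha, rose in IRI to 127, 163, 179 and 327 CPM from 29.8 to 59.0 CPM. In rhabdomyolysis it held 37.8, 16.9, 13.2 and 10.2 CPM against 19.4 to 46.9 CPM in Controls 5 to 8, an effect of -0.56 that was not called, and the difference was 2.80 ± 0.51 (limma adjusted p = 1.19e-04).

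Of 25 genes of mitochondrial respiration and the citrate cycle, 24 fell in IRI and 25 in rhabdomyolysis, against 40.1% and 46.5% of all genes. The IRI effect was higher for 12 and lower for none, against 28.6% and 23.4% of all genes, and the median difference was 0.35. Suclg1, a citrate cycle subunit gene, fell by 0.51 in IRI and 1.54 in rhabdomyolysis. Atp5b, a subunit of ATP synthase, fell by 1.05 and 1.23, and its difference was not called (95% interval -0.22 to 0.57), although the direct contrast called it higher in IRI, by 0.41 (limma adjusted p = 0.00960). DESeq2, whose median difference over all genes lay -0.11 from that of limma, called 8 of the 25 genes higher, against 22.3% of all genes, and the direct contrast called 22, against 35.6%. Among 13 cholesterol genes, 6 had a higher and 2 a lower IRI effect, against 28.6% and 23.4% of all genes. Stard4, a sterol carrier gene, held 52.8 to 84.0 CPM in IRI, overlapping Controls 1 to 4 (55.6 to 76.2 CPM), and 16.3 to 20.2 CPM in rhabdomyolysis, with no overlap with Controls 5 to 8 (51.6 to 69.6 CPM).

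Of 13 genes of vitamin D, calcium and phosphate handling, 4 had a higher and 2 a lower IRI effect, against 28.6% and 23.4% of all genes. The vitamin D receptor gene Vdr, whose product induces Cyp24a1, held 192, 343, 292 and 236 CPM in IRI and 71.6, 70.2, 73.0 and 77.2 CPM in rhabdomyolysis, from 320.3 to 378 and 343 to 431 CPM in controls. One IRI mouse lay within its control range, and the rhabdomyolysis mice lay far below theirs (difference 2.01 ± 0.18, limma adjusted p = 2.93e-08). The parathyroid hormone receptor gene Pth1r fell by 0.70 in IRI and 2.21 in rhabdomyolysis, and Kl, which encodes the FGF23 co-receptor klotho, by 1.81 and 3.04. The phosphate transporter gene Slc34a3 was the reverse, at 5.38, 5.06, 4.71 and 4.23 CPM in IRI and 23.5, 9.65, 9.31 and 18.8 CPM in rhabdomyolysis, from 76.4 to 99.8 and 77.9 to 84.7 CPM (difference -1.53 ± 0.36).

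Beyond the proximal tubule, 15 markers of the loop of Henle and the distal convoluted tubule fell in IRI and 14 in rhabdomyolysis, against 40.1% and 46.5% of all genes. The IRI effect was higher for 3 and lower for 1, against 28.6% and 23.4% of all genes, and DESeq2 called 2 higher and 2 lower, against 22.3% and 23.5%. Egf, a growth factor gene of the thick limb and distal tubule, dropped to 13.6, 29.8, 24.1 and 26.7 CPM in IRI and 20.2, 29.0, 21.9 and 53.2 CPM in rhabdomyolysis, from 674 to 1498 and 1002 to 1389 CPM. The effects of -5.49 and -5.32 did not differ detectably (95% interval of the difference -0.96 to 0.63). The salt transporter gene Slc12a1 was similar (-3.44 and -3.19). Cldn10, a tight junction gene of the thick limb that the proximal tubule also expresses, fell by 0.91 in IRI and 3.61 in rhabdomyolysis (difference 2.70 ± 0.24). Of 8 collecting duct markers, 5 had a higher and 1 a lower IRI effect, against the same shares of all genes.

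Tubular injury genes rose in both injuries. Of 24 tested, 23 rose in IRI and 24 in rhabdomyolysis, against 40.6% and 48.8% of all genes. The IRI effect was lower for 17 and higher for 1, against 23.4% and 28.6% of all genes. The direct contrast called 2 higher, against 35.6%, and DESeq2 none, against 22.3%. Havcr1, which encodes the injury marker KIM-1, held 4062, 3094, 3862 and 2851 CPM in IRI and 1611, 2300.1, 2275 and 1156 CPM in rhabdomyolysis, from 1.94 to 4.89 and 1.66 to 4.54 CPM in controls. Every IRI mouse lay above every rhabdomyolysis mouse, yet the difference between effects of 0.68 ± 0.33 was not called (limma adjusted p = 0.0879, 95% interval -0.004 to 1.36). It was called by limma when Control 4 (adjusted p = 0.0412) or Control 8 (adjusted p = 0.0486) was left out. In the direct contrast it was also called, with IRI 0.96 higher on the log2 scale (limma adjusted p = 0.00108). Lcn2, which encodes the iron-siderophore carrier NGAL, was higher in rhabdomyolysis, with 502, 657, 411 and 825 CPM in IRI and 1525, 940.2, 979 and 2289 CPM in rhabdomyolysis (difference -1.47 ± 0.41, limma adjusted p = 0.00524). The keratin gene Krt20 rose by 7.09 and 8.34, and Cdkn1a, the cell cycle inhibitor p21, by 3.74 and 6.31.

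The series title concerns SOX9, a transcription factor induced in injured tubule cells, and VGF, a secreted neuropeptide precursor. Sox9 held 12.5, 26.4, 15.5 and 20.6 CPM in IRI and 45.7, 57.6, 45.8 and 38.6 CPM in rhabdomyolysis, from 0.422 to 1.01 and 0.481 to 1.202 CPM in controls. Vgf held 4.85, 14.9, 10.2 and 8.58 CPM in IRI and 43.7, 25.9, 42.2 and 19.1 CPM in rhabdomyolysis, with reads in only 1 of the 8 controls (0.141 CPM). Both genes rose in both injuries, and every rhabdomyolysis mouse lay above every IRI mouse. The differences were -1.198 ± 0.29 for Sox9 (limma adjusted p = 0.00182) and -1.72 ± 0.49 for Vgf (limma adjusted p = 0.00625). Neither call was made by edgeR (adjusted p = 0.114 and 0.326) or DESeq2 (adjusted p = 0.0840 and 0.171), with the same direction. Ptprn, a secretory granule gene, rose by 2.42 and 4.36 (difference -1.94 ± 0.36). Areg, the EGF receptor ligand amphiregulin, was the 1 injury gene with a higher IRI effect, at 4.72, 1.33, 1.26 and 2.29 CPM in IRI and 0.851, 0.394, 0.855 and 1.02 CPM in rhabdomyolysis and no control read. DESeq2 did not call it (adjusted p = 0.422), and neither did limma without IRI 1 (adjusted p = 0.0616) or Rhabdomyolysis 2 (adjusted p = 0.0624).

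Among 23 chemokine and NF-kappaB genes, 20 rose in IRI and 22 in rhabdomyolysis, against 40.6% and 48.8% of all genes. A lower IRI effect was called for 9 and a higher one for 3, against 23.4% and 28.6% of all genes. The cytokine gene Il11 held 1.05, 2.00, 1.38 and 0.686 CPM in IRI and 19.0, 13.1, 30.1 and 5.34 CPM in rhabdomyolysis (difference -2.80 ± 0.56), a call that edgeR did not make (adjusted p = 0.0848). Il6 had 0 to 0.266 CPM in IRI and 1.02 to 5.32 CPM in rhabdomyolysis. Il11 and Il6 were lowest in Rhabdomyolysis 4. The adhesion molecule gene Icam1 went the other way, with 48.5, 64.3, 46.6 and 52.2 CPM in IRI and 44.9, 35.6, 42.9 and 38.4 CPM in rhabdomyolysis (difference 0.56 ± 0.18, limma adjusted p = 0.0140; DESeq2 adjusted p = 0.0549).

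Most matrix and protease genes rose in both injuries. Of 24 tested, 20 rose in IRI and 23 in rhabdomyolysis, against 40.6% and 48.8% of all genes. The IRI effect was lower for 14 and higher for 1 (none by DESeq2), against 23.4% and 28.6% of all genes, with median effects of 1.63 in IRI and 2.74 in rhabdomyolysis. Plaur, the urokinase receptor gene, held 57.3, 33.6, 37.9 and 28.6 CPM in IRI and 153, 193, 216 and 194 CPM in rhabdomyolysis (difference -2.52 ± 0.30). Timp1, an inhibitor of matrix proteases, held 23.1, 20.9, 22.04 and 12.9 and 179, 89.4, 162 and 32.9 CPM, and its wide spread in rhabdomyolysis came with a difference of -2.28 ± 0.56 that edgeR did not call (adjusted p = 0.171). The matricellular genes Ctgf and Thbs1 held 39.3 to 100.4 and 45.9 to 65.5 CPM in IRI and 237 to 524 and 229.7 to 385 CPM in rhabdomyolysis.

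The levels of markers of other cell types are given beside these groups. The summed level of 18 markers of recruited monocytes and neutrophils ranged from 62.2 to 112 CPM in Controls 1 to 4, 183 to 208 CPM in IRI, 85.8 to 98.2 CPM in Controls 5 to 8 and 397 to 673 CPM in rhabdomyolysis. In rhabdomyolysis Thbs1, which other cells also express, alone gave 229.7 to 385 CPM of that sum. Of the list, 3 of 17 tested markers had a lower IRI effect, a smaller share than the 23.4% of all genes, and 7 were lower in the direct contrast, against 32.6% of all genes. Of the 17 tested, 15 rose in IRI and all 17 in rhabdomyolysis, against 40.6% and 48.8% of all genes. Their median effect was 1.14 in IRI and 1.58 in rhabdomyolysis, with a median difference of -0.44. Lyz2 and Plac8, expressed by myeloid cells and not called, had differences of 0.01 (95% interval -0.996 to 1.02) and 0.08 (-0.59 to 0.75). The sum of 9 endothelial markers ranged from 307 to 596, 577 to 669, 415 to 495 and 984 to 1396 CPM in the same order, and 6 of the 9 had a lower IRI effect, against 23.4% of all genes, among them Pecam1 (0.43 and 1.41). Of 12 resident macrophage markers, 5 had a lower IRI effect, against 23.4% of all genes, while DESeq2 called 8 lower, against 23.5%, and the direct contrast 11, against 32.6%. Against controls, 6 of the 12 fell and 2 rose in IRI, against 40.1% and 40.6% of all genes, and 6 fell and 6 rose in rhabdomyolysis, near the 46.5% and 48.8% of all genes. The median effect was -0.66 in IRI and -0.02 in rhabdomyolysis. Their summed level was 574 to 779 CPM in Controls 1 to 4, 274 to 361 CPM in IRI, 608 to 761 CPM in Controls 5 to 8 and 372 to 643 CPM in rhabdomyolysis. Of 11 fibroblast and mural markers, 2 had a lower and 1 a higher IRI effect, both smaller shares than the 23.4% and 28.6% of all genes. DESeq2 and the direct contrast each called 5 lower, against 23.5% and 32.6% of all genes. All 11 rose in IRI and 10 in rhabdomyolysis, against 40.6% and 48.8% of all genes, and their sum was 142 to 295 CPM in Controls 1 to 4, 599 to 681 CPM in IRI, 182 to 242 CPM in Controls 5 to 8 and 689.8 to 1671 CPM in rhabdomyolysis. The part of these cells in the differences of the cytokine, matrix and vascular genes was not tested. Of 8 erythroid markers, which include globin genes with shared reads, 5 had a higher IRI effect, against 28.6% of all genes. DESeq2 called 3 higher, against 22.3% of all genes, and the direct contrast 8, against 35.6%. Their sum was 1083 to 1726 CPM in IRI against 1264 to 3009 in Controls 1 to 4, and 398 to 514 CPM in rhabdomyolysis against 1210.3 to 2988 in Controls 5 to 8. Their part in other results was not tested.

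Of 16 DNA replication genes, 16 rose in IRI and 15 in rhabdomyolysis, against 40.6% and 48.8% of all genes. A higher IRI effect was called for 5 and a lower one for 1, against 28.6% and 23.4% of all genes, and the direct contrast called 13 higher and 1 lower, against 35.6% and 32.6%. Ccne2, the cyclin E2 gene, held 7.61, 7.46, 10.3 and 4.46 CPM in IRI and 2.84, 3.55, 3.04 and 3.63 CPM in rhabdomyolysis (difference 1.26 ± 0.28, limma adjusted p = 7.88e-04). The entry factor E2f1 rose in IRI (1.16) and had an effect of -0.08 in rhabdomyolysis that was not called. Pcna, the sliding clamp of DNA polymerase, was the member with a lower IRI effect (0.49 against 1.16). Of 11 mitotic genes, 4 had a higher and none a lower IRI effect, against 28.6% and 23.4% of all genes. DESeq2 called 2 higher, against 22.3% of all genes it tested. The direct contrast called 4 higher and 1 lower, against 35.6% and 32.6% of all genes. Top2a, the mitotic topoisomerase gene, held 4.85, 4.93, 7.46 and 2.63 CPM in IRI and 1.80, 2.66, 4.09 and 2.27 CPM in rhabdomyolysis. Of 21 p53 targets, the IRI effect was lower for 7 and higher for 3, against 23.4% and 28.6% of all genes. DESeq2 called 8 lower and none higher, against 23.5% and 22.3%, and the direct contrast 11 lower and 5 higher, against 32.6% and 35.6%. Plk3, a stress kinase gene, rose by 1.47 and 3.95, a difference of -2.48 ± 0.40. Of 10 hypoxia genes, 3 had a higher and 4 a lower IRI effect, and of 6 glycolysis genes 2 higher and 4 lower, again against 28.6% and 23.4% of all genes. DESeq2 called none of the glycolysis genes higher and 2 lower, against 22.3% and 23.5%. Of 14 interferon and antigen presentation genes, 2 had a lower IRI effect, a smaller share than the 23.4% of all genes. DESeq2 called 5 lower, against 23.5% of all genes, and the direct contrast 4 lower and 1 higher, against 32.6% and 35.6%. Of 14 podocyte and 16 lymphocyte markers looked for, only 4 and 2 were tested. None of them was called by limma, against 52.0% of all genes. DESeq2 called 1 podocyte gene lower, against 23.5% of all genes, and the direct contrast 2, against 32.6%.

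**Figure D5:**
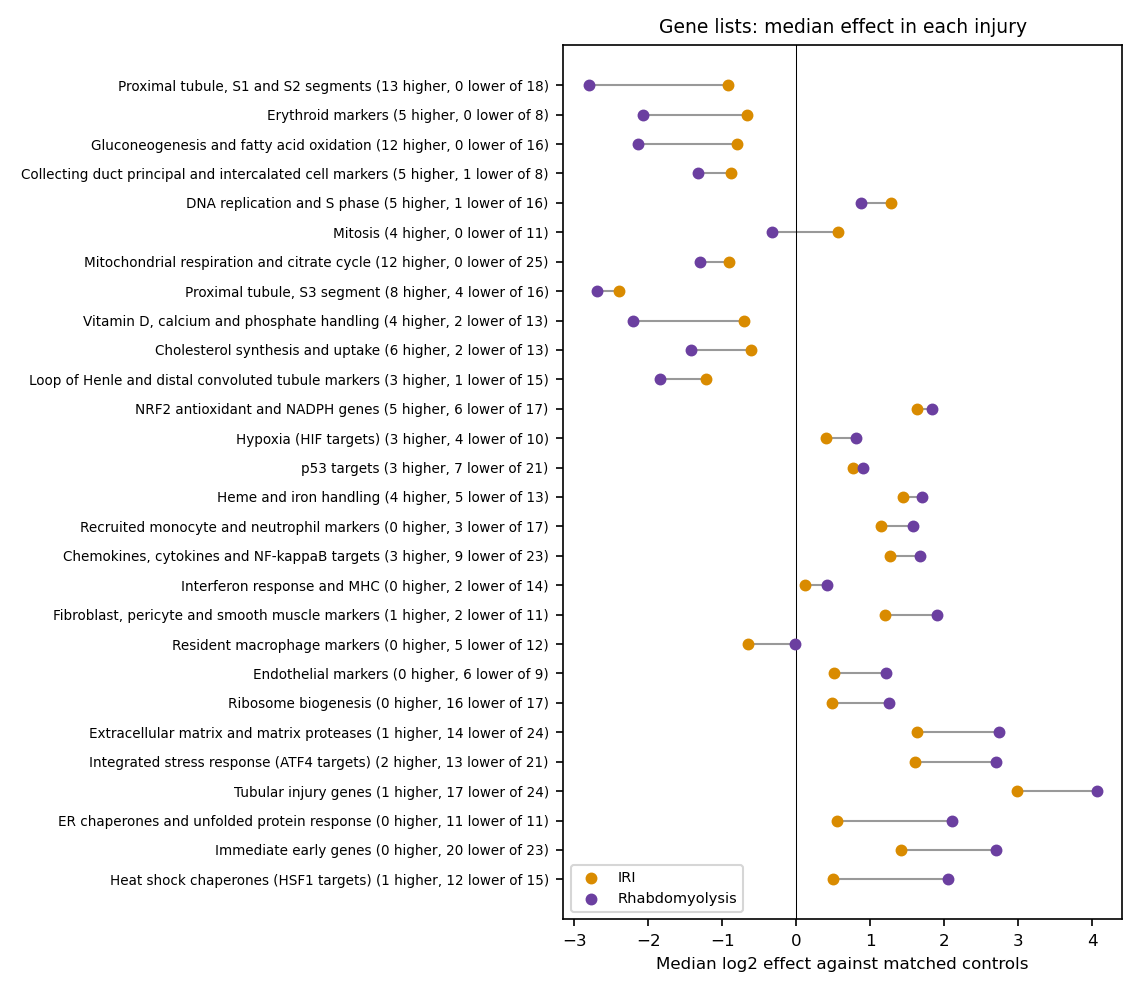
Median effect of each gene list with at least 8 genes tested, in IRI (orange) and in rhabdomyolysis (purple), on the log2 scale against the controls of each injury, with lists ordered by the median difference. The numbers after each name give the genes with a higher and a lower IRI effect; the chaperone, immediate early and injury lists stand at one end and the S1 and S2 transporters at the other.

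Of the 28 genes called in opposite directions, the 4 that fell in IRI and rose in rhabdomyolysis included Taf7 and Fam83g. Taf7, a subunit of the general transcription factor TFIID, held 5.11, 3.33, 4.02 and 4.69 CPM in IRI and 19.8, 21.97, 23.0 and 36.9 CPM in rhabdomyolysis, from 5.52 to 6.76 and 5.21 to 7.18 CPM. Fam83g held 20.3, 16.2, 12.6 and 14.1 and 55.5, 70.0, 71.1 and 90.3 CPM, from 19.4 to 25.2 and 18.4 to 25.3 CPM. The falls in IRI were small (0.46 and 0.54), and the differences of -2.33 ± 0.24 and -2.21 ± 0.24 came mainly from the rises in rhabdomyolysis.

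Of the 2723 genes that were not called, 261 had a 95% interval of the difference within 0.5 on either side of 0, which bounds their difference at that size. Plp2, a membrane protein gene, rose by 2.69 and 2.73 (95% interval of the difference -0.41 to 0.34). Tuba1b, an alpha tubulin gene, held 581, 561, 582 and 615 CPM in IRI and 639, 546, 593 and 453 CPM in rhabdomyolysis, against 126 to 177 and 145 to 160.0 CPM (interval -0.26 to 0.41). Ppp1r1a, a phosphatase inhibitor gene of the distal tubule, fell by 2.14 and 2.20 (interval -0.25 to 0.35), and the dipeptidase gene Cndp2 by 2.00 and 1.98 (interval -0.46 to 0.43). Spp1, which encodes osteopontin, rose to 20905 to 29173 CPM in IRI and 22436 to 30158 CPM in rhabdomyolysis, with overlapping values and a difference of -0.26 ± 0.23.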

How the data were processed

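RNA of kidney cortex was sequenced from poly-A selected, stranded libraries, per the labels' protocols. The values analysed are the CPM of 6025 genes that the authors deposited in 1 table. The submitters' processing notes name Bowtie2 2.1.0, RSEM 1.2.15, edgeR, FastQC and the build GRCm38 or mm10, and the scaling behind the CPM is not given in the sources used here. In the 16 compared libraries the CPM were whole multiples of 1 read, within 0.01, for 100% of values, and these recovered read counts entered the alternatives edgeR 4.0.16 and DESeq2 1.42.0.

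limma 3.58.1 (R 4.3.3) was fitted to log2(CPM + 1) with a mean-variance trend over all 20 libraries, cisplatin included for the estimate of spread only. The p-values were adjusted by Benjamini-Hochberg over 5672 genes, with a threshold of 0.05, and 353 genes below a mean of 1 CPM were left out. "Called" means past this threshold, "±" gives the standard error, and 13 gene names in the table read as dates. Floors of 3 reads per library cover counting error only. The fit was tested on simulated counts over 5515 genes with the same fixed spread, most of them without any injury effect. It called 93.6% and 100% of genes given a log2 difference of -2 and 2, and 58.3% and 50% of those given -1 and 1. It also called 12 of 5323 unchanged genes. Real genes differ in both respects, so these rates are not those of the comparison itself.

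The gene lists and the genes compared were chosen with earlier results of these data known. Most lists also held genes that were absent from the deposited table, and the counts cover the genes tested. Genes were named by rule: the largest non-overlapping differences, genes called in opposite directions, up to 4 called and 2 uncalled members of each list, genes with equal effects, and Vgf, Sox9, Havcr1, Lcn2, Hmox1 and Hspa1a. The text leaves out some of these and adds 35 genes chosen after their values were seen. Alternatives covered the pseudocount, the minimum mean, the scaling, the trend, the libraries fitted, the controls, each left-out library, a replicate block and both count tools.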

Additional observations from a re-analysis of the deposited data

Results flagged for a closer look

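The difference between the IRI and the rhabdomyolysis effect was itself tested for every gene, and 2949 genes passed, 28 of them with effects called in opposite directions in the 2 injuries. Single mice stood far from the other 3 of their group in 42 of the 471 groups of 4 examined for the genes named here. A mouse was counted when its gap to the nearest other took a larger share of the range of the group than Dixon's 95% critical value, and chance gives about 1 in 20 groups. In 8 of the 42 the highest mouse of the group had fewer than 10 reads, so that steps of single reads set the gap. In 5 of these (Vgf in Control 2, Fosl1 in Control 3, Il6 in Control 4, Myo18b in IRI 2 and Ptprn in Control 7) the group held no more than 1 read per mouse, and these say nothing about the mice. Il6 in IRI 4, Il11 in Control 4 and Slc7a11 in Control 7 rest on groups with at most 2, 4 and 3 reads per mouse. The 1 in 20 rate does not apply to such groups, and the other 34 came from 440 groups in which the highest mouse had at least 10 reads.

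Control 1 held the highest value of its group for Hykk (472 CPM, gap 0.869). Control 2 held the highest value of its group for Vgf (0.141 CPM, gap 1.000). Control 3 held the highest value of its group for Fosl1 (0.129 CPM, gap 1.000). Control 4 held the highest value of its group for Fos (1.44 CPM, gap 0.894), Il11 (0.575 CPM, gap 1.000), Il6 (0.144 CPM, gap 1.000). Control 5 held the highest value of its group for Dnajb9 (87.3 CPM, gap 0.948). Control 7 held the highest value of its group for Acy3 (3013 CPM, gap 0.838), Hsp90aa1 (759 CPM, gap 0.836), Hspb1 (8.68 CPM, gap 0.905), Lrp2 (1388 CPM, gap 0.864), Slc7a11 (0.401 CPM, gap 1.000), Sqstm1 (785 CPM, gap 0.860). IRI 1 held the highest value of its group for Asns (69.6 CPM, gap 0.868), Atf4 (147 CPM, gap 0.861), Trib3 (28.7 CPM, gap 0.915). IRI 2 held the highest value of its group for Myo18b (0.133 CPM, gap 1.000), Nupr1 (28.9 CPM, gap 0.865), Ppp1r1a (45.4 CPM, gap 0.865). IRI 4 held the highest value of its group for Ctgf (100.4 CPM, gap 0.965), Ehhadh (906 CPM, gap 0.869), Psat1 (365 CPM, gap 0.892). Rhabdomyolysis 1 held the highest value of its group for Hspa1a (2128 CPM, gap 0.897), Hspa1b (1724 CPM, gap 0.849). Rhabdomyolysis 3 held the highest value of its group for Slc22a13 (20.4 CPM, gap 0.877). Rhabdomyolysis 4 held the highest value of its group for Krt20 (509 CPM, gap 0.832), Nqo1 (192 CPM, gap 0.831), Ppp1r15a (463 CPM, gap 0.868), Psat1 (129.9 CPM, gap 0.921), Slc12a1 (151 CPM, gap 0.912).

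Control 2 held the lowest value of its group for Top2a (0.845 CPM, gap 0.917). Control 4 held the lowest value of its group for Slc7a13 (435 CPM, gap 0.870), Susd3 (35.8 CPM, gap 0.855). Control 6 held the lowest value of its group for Plp2 (14.1 CPM, gap 0.890), Ppp1r15a (14.9 CPM, gap 0.852). Control 7 held the lowest value of its group for Ptprn (0 CPM, gap 0.839). IRI 2 held the lowest value of its group for Hspa8 (1292 CPM, gap 0.956). IRI 4 held the lowest value of its group for Il6 (0 CPM, gap 0.862). Rhabdomyolysis 1 held the lowest value of its group for Cndp2 (382 CPM, gap 0.899), Dnajb9 (312 CPM, gap 0.851), Procr (74.7 CPM, gap 0.895). Rhabdomyolysis 2 held the lowest value of its group for Cebpb (62.1 CPM, gap 0.930).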

How the results depend on the processing

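The count of genes whose effects differed (2949) stayed within 1.5 times under every alternative run except a minimum difference of 2-fold, which left 1283 genes, 714 higher and 569 lower in IRI. The other settings called between 2626 genes (minimum mean of 5 CPM) and 3867 genes (injuries contrasted directly, without controls), and edgeR called 2819 and DESeq2 2762. Leaving out 1 library gave 2696 to 2999 calls. DESeq2 shared 2538 calls with limma and edgeR 2667, all in the same direction, and the median difference of all genes under DESeq2, which also differs from limma in the genes tested, the added 1 and the model, lay -0.11 from the limma value. With the replicate number of IRI and Controls 1 to 4 as a block, 2938 genes were called. Same-numbered mice did not deviate together (correlations of 0.065, -0.112, 0.176 and -0.052), so the numbers were not taken as a pairing. No gene named here and called by limma changed direction. The range of library identifiers and the injury cannot be told apart beyond the comparison of the 2 control sets, and the number of mice, 4 a group, limits small differences.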
